A study of Mus musculus with 10 samples.

Results

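The transcripts of 43 mitosis genes were followed in 10 RNA sequencing libraries of mouse intestinal cells. The genes were taken from the 18594 genes of the deposited count table by name, with the 1 transcript that the authors marked as representative for each gene, and all 43 were found. They fall into 9 roles, from the cyclins that start mitosis to the proteins that separate the daughter cells. The members were named by role, but with earlier results of these data known.

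In mitosis the replicated chromosomes condense, attach by their kinetochores to the microtubules of the spindle and are pulled apart before the cell divides. Cdk1 with its cyclins starts this process, the spindle checkpoint holds it until every kinetochore is attached, and the anaphase-promoting complex ends it by marking cyclin B and securin for destruction. In the intestine, crypt base stem cells that carry the receptor Lgr5 and their transit-amplifying daughters divide, and most differentiated epithelial cells have left the cycle.

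The study concerned telocytes, Foxl1-expressing mesenchymal cells beneath the epithelium, as a source of Wnt ligands for the crypts. The 3 Foxl1 positive libraries came from mice of mixed strain that carried Foxl1Cre, with the Cre reporter Rosa-YFP in replicates 1 and 2 and Rosa-mTmG in replicate 3. The 3 Foxl1 negative libraries came from Foxl1Cre; Rosa-mTmG mice of mixed strain. In these mice the Foxl1 promoter drives Cre, so the reporter marks cells with present or past activity of that promoter. The 2 Lgr5 positive libraries came from mice of mixed strain with a genotype written Lr5-EGFP-IRES CreERT2, a male and a female by their column headers. The 2 differentiated epithelium libraries came from wild type C57BL/6J mice. No age is given, and the tissue label reads intestine mesenchyme on all 10 libraries. The design text names 3 mice for the mesenchymal sorts without tying a library to an animal, and p-values below thus reflect only how far libraries of a group lay apart, which can include technical spread.

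The total counts ranged from 1311205 to 13440838 in the 6 mesenchymal libraries and from 46415489 to 99628145 in the 4 others. Of the 18594 genes, between 14332 and 16237 had a count in each library outside the Foxl1 negative group, against 1992, 4097 and 5966 in the Foxl1 negative libraries. In the Lgr5 positive libraries Lgr5 was at 269 and 375 CPM (CPM, counts scaled to library size with factors from the trimmed mean of M values, TMM) and the fibroblast markers summed to 0.725 and 1.46 CPM. In differentiated epithelium Lgr5 was at 0.438 and 0.518 CPM and the enterocyte markers summed to 169507 and 142215 CPM. Foxl1 itself was at 0.155, 31.0 and 11.6 CPM in its positive sort and at 0 throughout its negative sort, and the first of these values, from 2 counts, lies below the 0.233 CPM that 3 counts make in that library. The Foxl1 negative libraries shared 1 sequencing run and no other libraries shared any, and run and group cannot be told apart.

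The mitosis genes made up the largest share of the counts in the Lgr5 positive libraries. Their counts came to 0.538% and 0.600% of all counts there, to 0.314%, 0.147% and 0.109% in Foxl1 positive cells, and to 0.0112% and 0.0146% in differentiated epithelium. In the Foxl1 negative libraries they came to 0.00221%, 0.0303% and 0.237%. Summed over the 43 genes, the level was 5033 and 5612 CPM in Lgr5 positive cells, 2716, 1172 and 1001 CPM in Foxl1 positive cells, 243 and 292 CPM in differentiated epithelium and 17.5, 255 and 1479 CPM in Foxl1 negative cells. In bulk libraries fewer dividing cells and less RNA per dividing cell cannot be told apart. All 43 genes had a count in each Lgr5 positive and differentiated library, and the Foxl1 positive libraries counted 43, 42 and 42 of them. The Foxl1 negative libraries counted 2, 1 and 12.

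**Figure D1:**
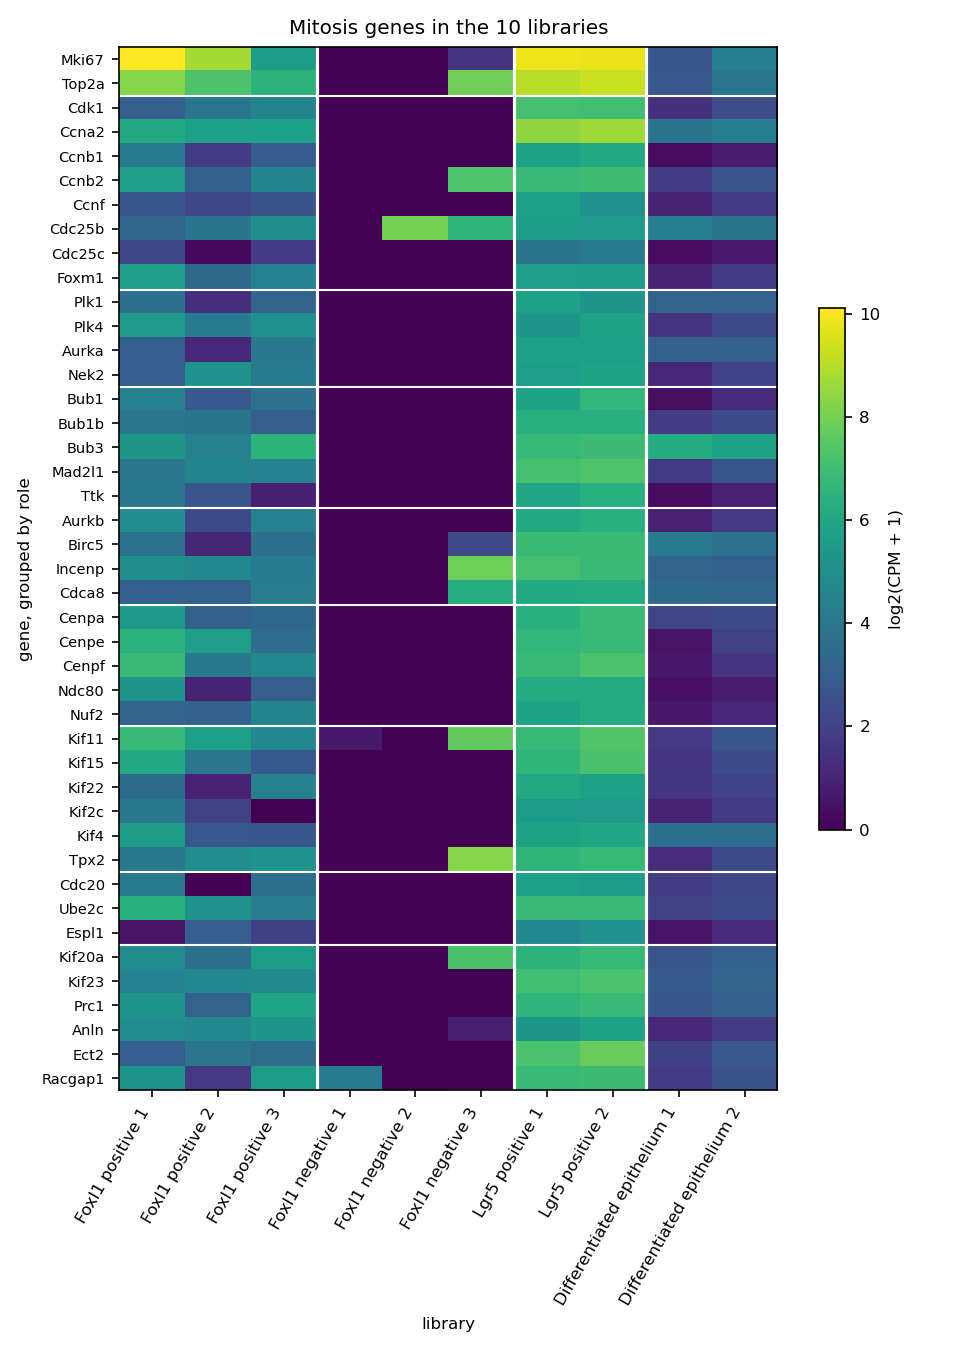
Level of the 43 mitosis genes, as log2(CPM + 1), in the 10 libraries, with genes grouped by role (white lines). The Lgr5 positive columns are bright for nearly every gene, the Foxl1 negative columns hold counts for 2, 1 and 12 genes, and Foxl1 positive replicate 1 shows a brighter Mki67 cell than any other library.

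Per length, as the authors' FPKM (fragments scaled by library size and transcript length), the mitosis genes spanned a wide range within Lgr5 positive cells. Ccna2, the cyclin of S phase and mitotic entry, was highest at 80.3 ± 10.1 FPKM (SD, n = 2). It was followed by Ube2c, which feeds ubiquitin to the anaphase-promoting complex, at 71.8 ± 0.820 FPKM, Top2a, which untangles sister chromatids, at 65.1 ± 7.80 FPKM, and the proliferation marker Mki67 at 54.6 ± 0.919 FPKM. The lowest were Espl1, the separase that cuts cohesin, at 2.62 ± 0.567 FPKM, and Cdc25c, a phosphatase that activates Cdk1, at 4.90 ± 0.673 FPKM.

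Lgr5 positive cells had higher levels of every mitosis gene than differentiated epithelium. All 43 passed the test (edgeR quasi-likelihood on the 4 libraries, Benjamini-Hochberg adjusted p under 0.05 over all 14534 genes tested) and all were higher, beside calls of 34.4% of genes as higher and 31.9% as lower. The fold changes ran from 0.80 to 7.00 on the log2 scale with a median of 4.91, where the median over all genes was 0.12. Without differentiated replicate 2 the median was 5.52 and the highest value 8.01, and without differentiated replicate 1 they were 4.37 and 6.60. The Lgr5 positive and differentiated libraries did not overlap in CPM for any of the 43, and 44% of all genes tested were higher without overlap. Markers of crypt base stem cells moved the same way, with a sum of 6009 and 8255 CPM in Lgr5 positive cells and 87.8 and 97.0 CPM in differentiated epithelium. Their part in the result was not tested. When the Foxl1 positive libraries shared the fit, 30 of the 43 were called beside 4.61% of genes. With all 10 libraries in 1 fit no member and no other gene was called, here or between Foxl1 positive cells and either of these groups.

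Mki67 (chromosome 7, 142881471 to 142908062, mm9), whose product coats mitotic chromosomes, was at 937 and 906 CPM in the Lgr5 positive libraries and at 5.33 and 18.9 CPM in the differentiated ones. It was 75.8-fold higher in Lgr5 positive cells (log2 6.24 ± 0.64, SE; edgeR adjusted p = 8.22e-05). Top2a (chromosome 11, 98854261 to 98885503) was at 523 and 614 CPM against 5.77 and 14.6 CPM, a log2 fold change of 5.80 ± 0.52. Both genes were low in both differentiated libraries, and higher in the second of them.

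Among the cyclins and their partners, all 8 rose. Ccnb1 (chromosome 13, 101548694 to 101556441), the cyclin that brings Cdk1 into mitosis, was at 57.8 and 71.2 CPM in Lgr5 positive cells and at 0.246 and 0.764 CPM in differentiated epithelium. Its fold of 126 was the largest of this role (log2 6.98 ± 0.57; edgeR adjusted p = 3.34e-05). Cdk1 (chromosome 10, 68799383 to 68815660), the kinase itself, was at 140 and 130 CPM against 1.70 and 4.26 CPM, a log2 fold change of 5.49 ± 0.50. Foxm1, a transcription factor of late cell cycle genes, rose by 4.91 ± 0.50 on the log2 scale. Cdc25b (chromosome 2), another phosphatase that activates Cdk1, rose least, from 19.1 and 13.8 CPM in differentiated epithelium to 46.1 and 43.4 CPM (log2 1.45 ± 0.32; edgeR adjusted p = 0.00449).

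The 4 mitotic kinases rose with a median log2 fold change of 3.44, below the median of all 43. Nek2, a centrosome kinase, rose most, from 1.23 and 3.06 CPM to 49.8 and 56.1 CPM (log2 4.62 ± 0.50). Plk1, which acts at centrosomes, kinetochores and the midzone, rose least, from 8.26 and 8.01 CPM to 51.2 and 37.0 CPM (log2 2.44 ± 0.35). Aurka, the kinase of the spindle poles, was likewise well above 0 in both differentiated libraries, at 7.71 and 7.67 CPM.

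The spindle checkpoint held both a very large and the smallest rise of the 43. Ttk, the kinase at the head of the checkpoint, was at 62.7 and 79.8 CPM in Lgr5 positive cells and at 0.273 and 0.887 CPM in differentiated epithelium (log2 6.92 ± 0.58). A further transcript of Ttk had 1563 and 4631 counts in the Lgr5 positive libraries, against 3110 and 8501 for the one used. In the differentiated libraries it had 10 and 34 counts, against 10 and 36. The rise of this further transcript was not tested. Bub3 (chromosome 7, 138703905 to 138715412), which carries Bub1 and Bub1b to the kinetochore, was at 110 and 123 CPM against 76.4 and 57.7 CPM. Its rise of 1.74-fold (log2 0.80 ± 0.29; edgeR adjusted p = 0.0365) did not pass with median-of-ratios scaling (0.0662), with DESeq2 (0.0802), or without differentiated replicate 2 (0.153), Lgr5 positive replicate 1 (0.126) or Lgr5 positive replicate 2 (0.195). Over the settings tried its adjusted p ran from 0.00203 to 0.886. Bub1, Bub1b and Mad2l1, the checkpoint's other components, rose by 6.56, 4.66 and 5.31 on the log2 scale.

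The chromosomal passenger complex corrects faulty attachments and then moves to the midzone. Its kinase Aurkb was at 70.0 and 79.7 CPM in Lgr5 positive cells and at 0.902 and 2.19 CPM in differentiated epithelium (log2 5.59 ± 0.50). Its 3 other subunits kept more of their level in differentiated epithelium. Cdca8 (borealin) was at 10.4 and 9.15 CPM there and at 71.5 and 73.2 CPM in Lgr5 positive cells (log2 2.89 ± 0.31), and Birc5 (survivin) and Incenp rose by 3.01 and 3.92 on the log2 scale.

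The centromere and kinetochore genes had the highest median of the roles with more than 2 genes, 6.19 on the log2 scale. Ndc80 (chromosome 17, 71845440 to 71876197), the subunit that grips the microtubule, was at 73.5 and 74.5 CPM in Lgr5 positive cells and at 0.410 and 0.740 CPM in differentiated epithelium. Its rise of 128-fold was the largest of the 43 (log2 7.00 ± 0.44; edgeR adjusted p = 1.75e-05). Cenpa, the histone H3 variant of centromeres, rose least in this role, from 3.36 and 4.17 CPM to 84.0 and 116 CPM (log2 4.73 ± 0.36). Nuf2, the partner of Ndc80, the motor Cenpe and the kinetochore protein Cenpf rose by 6.19, 6.02 and 6.68 on the log2 scale.

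Of the spindle motors, Kif15, a kinesin that helps hold the poles apart, was at 98.6 and 149 CPM in Lgr5 positive cells and at 2.02 and 3.94 CPM in differentiated epithelium (log2 5.37 ± 0.46). Kif4, a kinesin of chromosome arms and the midzone, was at 55.8 and 66.1 CPM against a mean of 11.8 ± 0.244 CPM (SD, n = 2) in the differentiated libraries (log2 2.37 ± 0.31). The groups stood apart for both genes. Kif11, the motor that separates the poles, and Tpx2, the activator of Aurka, rose by 5.20 and 5.30 on the log2 scale.

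Among the genes of mitotic exit, Ube2c was at 112 and 112 CPM in Lgr5 positive cells and at 2.84 and 3.82 CPM in differentiated epithelium (log2 5.07 ± 0.35). Cdc20, the activator of the anaphase-promoting complex, was at 54.4 and 46.3 CPM against 2.35 and 3.48 CPM (log2 4.11 ± 0.39). Of the 6 cytokinesis genes, Ect2, which activates RhoA at the division plane, rose most, from 2.73 and 5.74 CPM to 151 and 219 CPM (log2 5.45 ± 0.47). Prc1, which bundles midzone microtubules, rose least, from 5.55 and 7.64 CPM to 93.6 and 112 CPM (log2 3.96 ± 0.34).

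**Figure D2:**
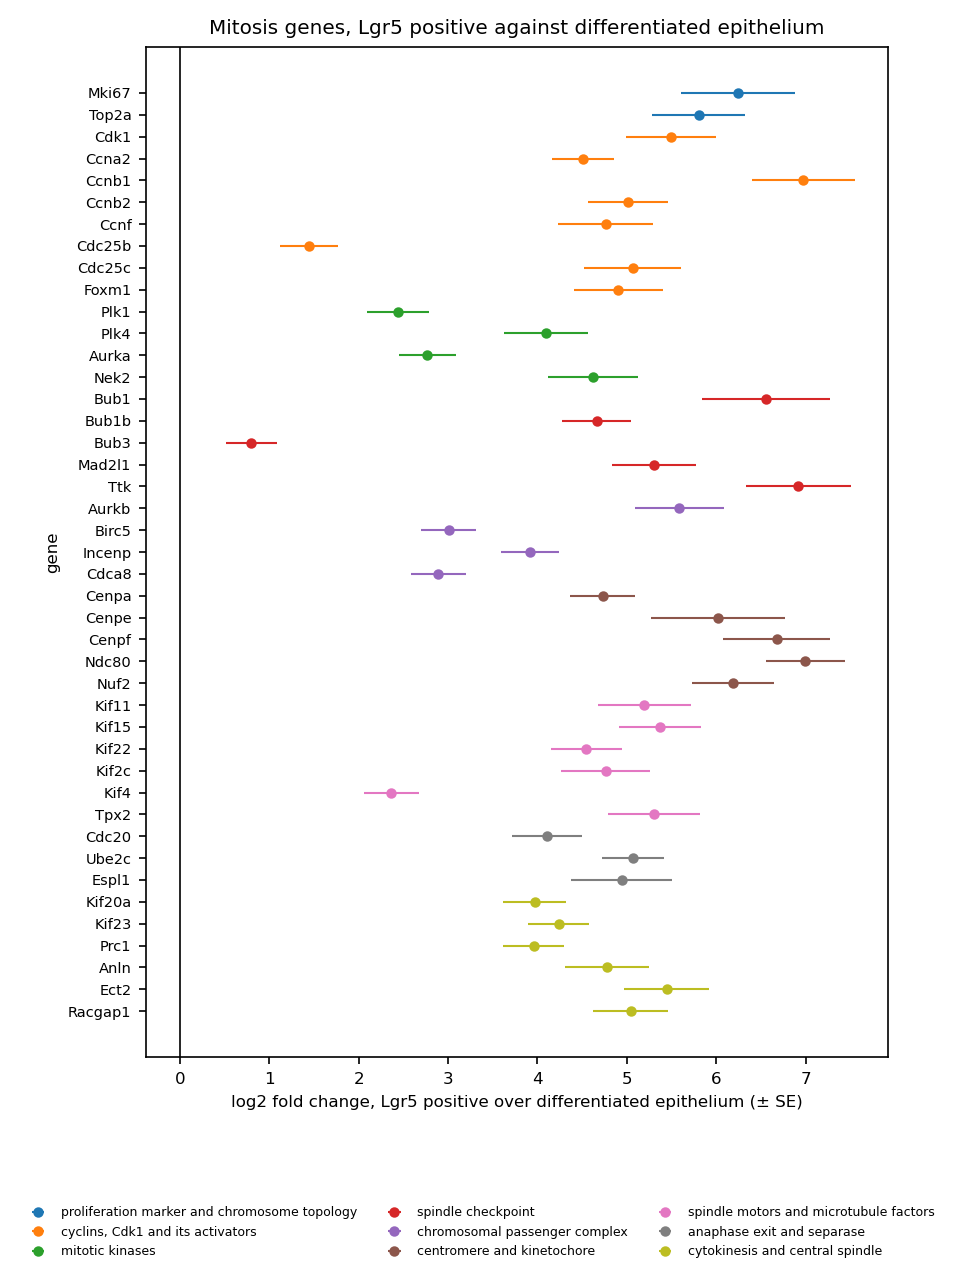
Log2 fold change of each mitosis gene in Lgr5 positive cells over differentiated epithelium, with bars of 1 SE from the edgeR fit of 4 libraries and colours for the 9 roles. All 43 points lie above 0, from Bub3 at 0.80 to Ndc80 at 7.00.

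The other genes of cell division showed a more mixed picture in the same comparison. Of 104 other mitosis genes tested, 83 were called higher and 5 lower, beside 34.4% and 31.9% of all genes. The median log2 fold change of the 104 was 3.51. All but 1 of the 8 condensin genes rose, and Ncapg, which helps compact chromosomes, did so by 6.52 ± 0.49 on the log2 scale. All 31 kinetochore genes lay above 0 and 27 were called higher. Ska1, a coupler of kinetochore and microtubule, was at 27.7 ± 7.59 CPM (SD, n = 2) in Lgr5 positive cells against 0.142 ± 0.00790 CPM. Of 20 spindle and midzone genes 19 were called higher, and of 17 regulators of mitotic entry 12 were. The core of the anaphase-promoting complex and its regulators had the lowest median of these roles, 0.94, with 9 of 16 called higher and 2 lower. There the inhibitor Fbxo5 rose by 6.53 ± 0.44 on the log2 scale, while the subunit Anapc2 fell by 2.04 and the late activator Fzr1 fell by 2.40. Ncaph2, Numa1 and Ensa, of condensin II, the spindle pole and mitotic entry, fell by 0.90, 1.20 and 1.42. The call of Ncaph2 was lost in the FPKM tests and without differentiated replicate 1 or either Lgr5 positive library (adjusted p from 0.0632 to 0.377 in these settings), and that of Numa1 in 2 of the FPKM tests (adjusted p of 0.0526 and 0.0545).

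Of 25 S phase genes 24 were called higher and none lower, beside 34.4% of all genes called higher, with a median log2 fold change of 4.02. Prim1, the primase that starts DNA strands, was at 168 and 178 CPM in Lgr5 positive cells and at 1.07 and 2.00 CPM in differentiated epithelium (log2 6.81 ± 0.44). Of 9 brakes of the cycle tested, 4 were called lower and 3 higher, shares near the 31.9% and 34.4% of all genes. Cdkn1a, the p21 inhibitor of cyclin-dependent kinases, was at 19.2 and 20.6 CPM in Lgr5 positive cells and at 892 and 684 CPM in differentiated epithelium, a log2 change of -5.30 ± 0.34. Cdkn2b, an inhibitor of Cdk4 and Cdk6, fell by 4.72. Cdkn1b, the p27 inhibitor, went the other way, with 249 ± 71.7 CPM (SD, n = 2) in Lgr5 positive cells against 40.7 ± 8.54 CPM (log2 2.62 ± 0.34), as did Cdkn2c and Rbl1 with log2 2.59 and 1.22. The call of Rbl1 was lost without Lgr5 positive replicate 2 (edgeR adjusted p = 0.109).

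The promoters of many mitosis genes hold a pair of short elements, the cell cycle genes homology region (TTTGAA or TTTAAA), which is bound by MuvB complexes, and the CCAAT box, which is bound by NF-Y. Since the 43 genes moved together, windows of 300 bases, from 250 before to 50 after each RefSeq start (GRCm38.p6), were searched for these letters on both strands. A window was at hand for 36 of the 43 genes, 39 windows in all. TTTGAA or TTTAAA stood in 87.2% of them and in 27.6% of 32851 windows of all genes. CCAAT stood in 79.5% against 37.4%, and both in 71.8% against 10.7%. Within 50 bases of the start, a span chosen after the positions had been seen, TTTGAA or TTTAAA stood in 74.4% against 8.28%. The same letters were less frequent in the windows of the other mitosis genes (TTTGAA or TTTAAA 43.2%, CCAAT 56.8%) and of the S phase genes (26.9% and 57.7%). These shares are descriptions, and a match is not a binding site.

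The windows of 5 genes are shown, because they bracket the responses: Ndc80 had the largest and Bub3 the smallest fold change, and Ube2c, Top2a and Mki67 had the highest levels per length among genes with a match. They run 5′ to 3′ on the strand of the gene, at chr17:71526808-71527107 (minus strand) for Ndc80, chr7:131560120-131560419 (plus) for Bub3, chr2:164769679-164769978 (plus) for Ube2c, chr11:99024140-99024439 (minus) for Top2a and chr7:135716330-135716629 (minus) for Mki67, all GRCm38.p6. Capitals mark the letters searched for, in either orientation.
Ndc80: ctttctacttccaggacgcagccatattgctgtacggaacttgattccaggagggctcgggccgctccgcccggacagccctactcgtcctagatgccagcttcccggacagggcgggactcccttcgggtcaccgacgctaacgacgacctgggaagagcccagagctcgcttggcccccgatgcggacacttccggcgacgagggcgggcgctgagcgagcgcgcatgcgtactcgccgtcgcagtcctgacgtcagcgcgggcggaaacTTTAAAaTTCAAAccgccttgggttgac
Bub3: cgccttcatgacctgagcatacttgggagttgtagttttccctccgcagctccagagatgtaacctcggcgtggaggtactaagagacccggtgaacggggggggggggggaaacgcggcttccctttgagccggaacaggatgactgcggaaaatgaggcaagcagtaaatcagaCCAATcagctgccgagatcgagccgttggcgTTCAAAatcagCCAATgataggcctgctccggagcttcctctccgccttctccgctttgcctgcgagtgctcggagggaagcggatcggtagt
Ube2c: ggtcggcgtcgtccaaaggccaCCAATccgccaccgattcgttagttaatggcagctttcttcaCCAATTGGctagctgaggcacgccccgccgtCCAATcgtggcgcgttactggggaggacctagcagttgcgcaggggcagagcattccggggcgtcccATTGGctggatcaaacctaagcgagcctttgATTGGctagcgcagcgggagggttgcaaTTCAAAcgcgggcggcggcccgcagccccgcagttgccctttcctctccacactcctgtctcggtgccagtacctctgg
Top2a: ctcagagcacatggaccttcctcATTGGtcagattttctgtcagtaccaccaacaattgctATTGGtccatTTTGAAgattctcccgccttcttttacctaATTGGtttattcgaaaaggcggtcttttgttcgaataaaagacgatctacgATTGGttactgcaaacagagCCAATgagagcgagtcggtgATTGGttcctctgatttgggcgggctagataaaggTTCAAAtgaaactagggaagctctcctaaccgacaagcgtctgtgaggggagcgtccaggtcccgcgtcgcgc
Mki67: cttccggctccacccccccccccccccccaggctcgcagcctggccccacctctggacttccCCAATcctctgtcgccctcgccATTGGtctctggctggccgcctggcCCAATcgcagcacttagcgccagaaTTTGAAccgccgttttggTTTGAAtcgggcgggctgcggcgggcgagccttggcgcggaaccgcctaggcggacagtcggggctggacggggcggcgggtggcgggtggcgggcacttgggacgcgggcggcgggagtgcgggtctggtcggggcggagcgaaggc
Ndc80 held TTTAAA at base 23 after the start, a reversed TTTGAA at base 30, and no CCAAT. Bub3 held a reversed TTTGAA at -43 and CCAAT at -74 and -32. Top2a and Ube2c held 6 CCAAT matches each; a pair of those in Ube2c overlap on opposite strands. Mki67 held TTTGAA at -116 and -98, outside the span nearest the start. The window shown for Bub3 thus held both kinds of match and that of Ndc80 only 1 kind. Bub3 has 2 windows, and both held the 2 kinds. The part of these matches in the fold changes was not tested.

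The 2 differentiated libraries were not alike in their mitosis genes, a contrast looked at after the values had been seen. In 35 of the 43 (81.4%) the level was higher in replicate 2 than in replicate 1, against 49.6% of 14124 genes counted in both. The median ratio of replicate 2 to replicate 1 was 1.95 for the mitosis genes and 0.996 for all genes. It reached 6.10 for Cenpe, 4.59 for Bub1 and 3.55 for Mki67. The 8 genes at or above their replicate 2 level in replicate 1 were Cdc25b, Bub3, Birc5, Incenp, Cdca8, Plk1, Kif4 and Aurka, with ratios from 0.723 to 0.994. These are the same 8 genes that had the smallest fold changes between Lgr5 positive and differentiated cells, a comparison that uses the same differentiated libraries. Olfm4 and Lyz1, markers of stem and Paneth cells, were at 13.0 and 23.3 CPM in replicate 1 and at 27.1 and 79.3 CPM in replicate 2. The other markers of these lists were mixed. Lgr5, Smoc2 and Mmp7 were also higher in replicate 2, while Ascl2, Axin2, Tnfrsf19, Defa24 and Ang4 were lower. The Paneth markers summed to 1027 CPM in replicate 1 and 449 CPM in replicate 2. The stem cell markers summed to 87.8 and 97.0 CPM, with Ascl2 and Axin2 lower in replicate 2. With 1 library on each side there is no replicate check, and the part of these cells in the difference was not tested.

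**Figure D3:**
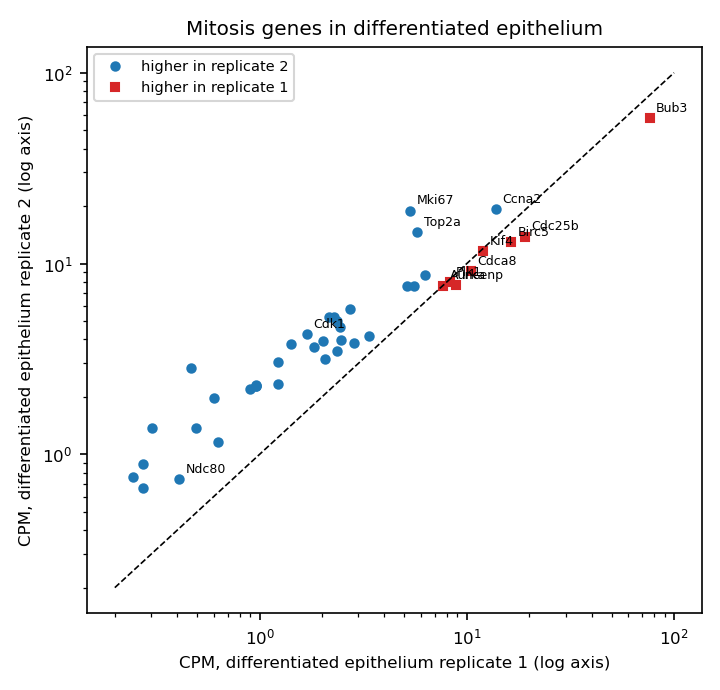
Level of the 43 mitosis genes in differentiated epithelium replicate 2 against replicate 1, in CPM on log axes, with the dashed line at equal levels. Circles, 35 genes, lie above the line, and squares, 8 genes including Bub3 and Cdc25b, lie on or below it.

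Foxl1 positive cells had lower levels of mitosis genes than Lgr5 positive cells. All 43 log2 fold changes were below 0, from -3.86 to -0.39 with a median of -2.09, where the median of all genes was 0.06. Only 4 passed the test, all lower: Ect2, Mad2l1, Cdk1 and Ccna2, beside 0.884% of 14259 genes called lower and 4.84% called higher. At an unadjusted p under 0.05 in edgeR, 19 were lower and none higher, where 1389 of the 14259 genes were lower and 2426 higher. DESeq2 and limma on FPKM called no member higher. In 39 of the 43 the Foxl1 positive libraries all lay below both Lgr5 positive ones, where 33% of all genes tested did so. Foxm1, Kif11, Mki67 and Plk4 overlapped.

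Ect2 was at 7.06, 14.6 and 11.4 CPM in Foxl1 positive cells and at 151 and 219 CPM in Lgr5 positive cells, a log2 fold change of -3.86 ± 0.60 (edgeR adjusted p = 0.0227). Cdk1 was at 7.68, 14.6 and 22.5 CPM against 140 and 130 CPM (log2 -2.99 ± 0.62; adjusted p = 0.0437). Mad2l1, which restrains Cdc20, and Ccna2 were lower by log2 -2.73 ± 0.53 and -2.47 ± 0.53 (adjusted p = 0.0370 and 0.0482). All 4 stood apart between the groups in every library. None of the 43 was called without Foxl1 positive replicate 1 or 2 or without either Lgr5 positive library, where no gene at all was called, and 11 were called without Foxl1 positive replicate 3, beside 8.13% of genes. DESeq2 called 11 lower beside 4.82% of genes, the fit of 7 libraries 8 beside 2.85%, and the fit with the replicate number as a block 14 beside 8.2%. On the FPKM scale, where the median of all genes was -1.09, 34 were called lower beside 25.7% of genes.

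Mki67 behaved unlike Cdk1. In the Foxl1 positive libraries it was at 1111, 430 and 46.9 CPM, so replicate 1 lay above both Lgr5 positive libraries and replicate 3 far below. Its log2 fold change of -0.53 ± 1.18 did not pass (adjusted p = 0.818) and was 0.03 without replicate 3. Mki67 and Top2a together took 52.3%, 50.1% and 13.8% of the counts of the 43 genes in the Foxl1 positive libraries, against 29.0% and 27.1% in Lgr5 positive cells. Ccnb1 was at 16.4, 2.47 and 6.73 CPM against 57.8 and 71.2 CPM, below both Lgr5 positive libraries each time (log2 -2.68 ± 0.91; adjusted p = 0.124).

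The 3 Foxl1 positive libraries also ranked the mitosis genes differently. As a share of the Lgr5 positive mean, Mki67 was at 120%, 46.7% and 5.09% in replicates 1, 2 and 3, Cenpf at 85.8%, 12.2% and 18.4%, and Bub3 at 34.5%, 17.5% and 78.7%. Cdk1, at 5.70%, 10.8% and 16.7%, went in the opposite order to Mki67. The median over the genes counted was a log2 ratio of -1.85, -3.08 and -2.51. Cdc20 had no count in replicate 2 and Kif2c, a kinesin that takes microtubules apart, none in replicate 3, where 3 counts make 0.337 and 0.631 CPM.

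**Figure D4:**
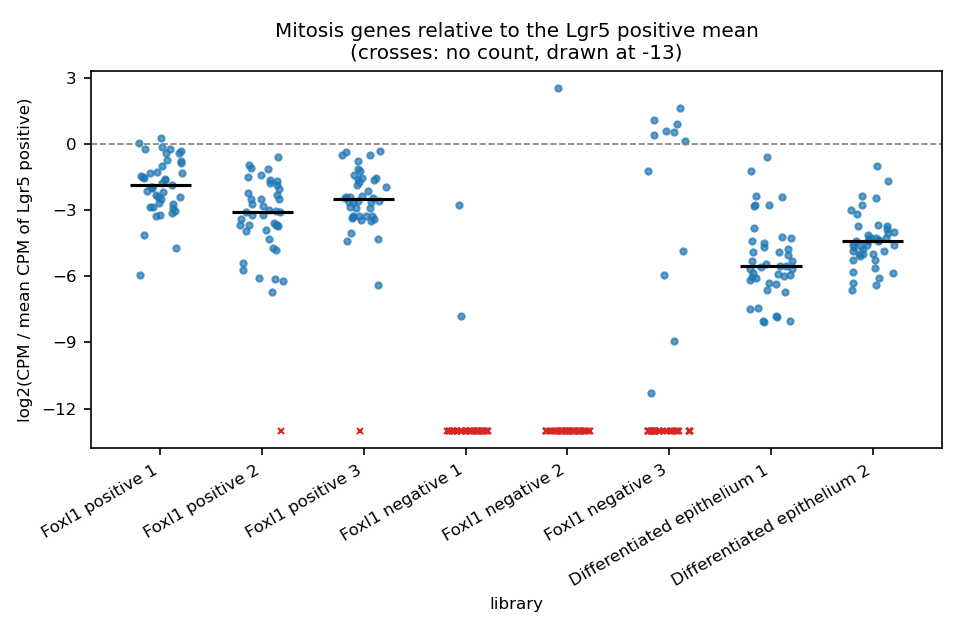
Level of each mitosis gene relative to its mean in Lgr5 positive cells, on a log2 scale, in the 8 other libraries, with black bars at the median where more than 20 genes were counted and red crosses for genes with no count. The Foxl1 positive medians lie at -1.85, -3.08 and -2.51 and the differentiated ones at -5.55 and -4.42.

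The levels in the Foxl1 positive libraries were also set against transcript length. Across the mitosis genes counted, the Spearman correlation of transcript length with the log2 ratio to Lgr5 positive cells was 0.27 in replicate 1 (n = 43), 0.52 in replicate 2 (n = 42) and -0.165 in replicate 3 (n = 42). Over all genes with at least 5 CPM in Lgr5 positive cells the same correlation was 0.45, 0.47 and 0.17. Genes are not independent replicates and share each library's depth and composition, so these values are descriptions. In replicate 2 the 21 longest genes lay at a median of 20.1% of the Lgr5 positive mean and the 21 shortest at 7.72%, where replicate 3 had 16.0% and 18.6%. Ube2c, the shortest, went against this in replicate 1 at 76.0%. This relation was looked for after the values had been seen, and its part in the high Mki67 and Cenpf levels of replicate 1 was not tested.

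**Figure D5:**
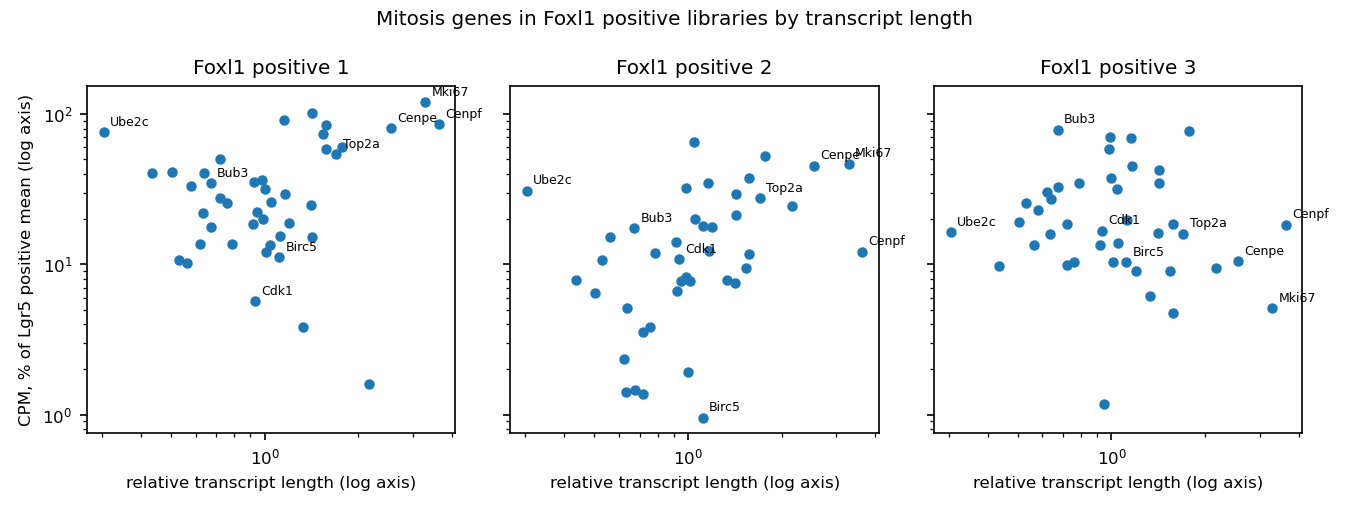
Level in each Foxl1 positive library as a percentage of the Lgr5 positive mean against transcript length relative to the median of the 43 genes, both on log axes, 1 point per gene with a count. Mki67, among the longest, lies at 120%, 46.7% and 5.09% in the 3 libraries.

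Markers of other cells moved with these libraries. The 9 epithelial markers summed to 2730, 2862 and 170 CPM in Foxl1 positive replicates 1, 2 and 3, the T cell markers to 399, 408 and 15.4 CPM and the Paneth markers to 5090, 776 and 56.2 CPM. The crypt base stem cell markers summed to 712, 431 and 525 CPM, and the fibroblast and telocyte markers to 6318, 3242 and 73332 CPM. Within the stem cell sum the markers went in opposite directions. Smoc2, at 44.5, 75.4 and 389 CPM, and Tnfrsf19 were highest in replicate 3. Olfm4, at 440, 283 and 40.4 CPM, fell from replicate 1 to replicate 3, as did Lgr5, Axin2 and Ascl2. None of the epithelial, T cell, Paneth, stem cell or fibroblast markers was at 0 in these libraries, while Ms4a1 of B cells was at 0 in replicate 3. Their part in the levels of the mitosis genes was not tested.

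Against differentiated epithelium, Foxl1 positive cells had higher levels of some mitosis genes. Of the 43, 9 were called higher and none lower, beside 10.6% of 13876 genes called higher and 7.19% lower. At an unadjusted p under 0.05 in edgeR, 24 were higher and none lower, where 3190 of the 13876 genes were higher and 2276 lower. DESeq2 called 29 higher, beside 23.3% of genes, and none lower. The fit of 7 libraries called 21 beside 13.6% of genes and the replicate block 12 beside 17.9%. Limma on log2(FPKM + 1), whose filter left 35 members to test, called 3 beside 5.74% of genes. The 9 were Top2a, Foxm1, Plk4, Cenpe, Cenpf, Kif11, Tpx2, Ube2c and Anln. The median over the 43 was 2.58 on the log2 scale, where that of all genes was 0.32, and 41 lay above 0. Both comparisons with Foxl1 positive cells use the same 3 libraries. In 29 of the 43 the groups did not overlap, where 26.7% of all genes tested were higher without overlap.

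Anln, the scaffold of the contractile ring, was at 29.6, 25.6 and 38.1 CPM in Foxl1 positive cells and at 1.23 and 2.34 CPM in differentiated epithelium (log2 4.32 ± 0.88; edgeR adjusted p = 0.0271). Plk4, the kinase that starts centriole duplication, was at 43.1, 16.5 and 32.8 CPM against 1.83 and 3.65 CPM (log2 3.70 ± 0.94; adjusted p = 0.0423). Top2a was at 309, 157 and 91.1 CPM against 5.77 and 14.6 CPM (log2 4.44 ± 0.97; adjusted p = 0.0313). For all 3 genes each Foxl1 positive library lay above both differentiated ones.

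Mki67 had the largest fold change of the 43 here, log2 5.72 ± 1.65, and did not pass (adjusted p = 0.0554). Ccnb1, at log2 4.30 ± 1.52, and Cdk1, at 5.68-fold, did not pass either (0.0887 and 0.125). Bub3 and Birc5 were below 0. Bub3 was at 40.1, 20.3 and 91.5 CPM in Foxl1 positive cells and at 76.4 and 57.7 CPM in differentiated epithelium (log2 -0.25 ± 0.74; adjusted p = 0.824), and Birc5 at 13.2, 1.12 and 12.2 CPM against 16.4 and 12.9 CPM (log2 -0.54 ± 1.14; adjusted p = 0.746). The groups overlapped for both. No member and no other gene was called without either differentiated library, 1 and 2 were called without Foxl1 positive replicate 1 or 2, beside 7.26% and 7.46% of genes, and 15 without replicate 3, beside 22.2%.

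Between the sorted mesenchymal groups most mitosis genes were counted in Foxl1 positive cells only. Of the 43, 36 passed the filter on low counts, 26 were called higher and none lower, beside 42.2% of 11204 genes called higher. DESeq2 called 32 higher beside 52.2% of genes. Limma on log2(FPKM + 1), whose filter left only 18 members to test, called 9 higher beside 34.1% of genes. With the replicate number as a block no member and no other gene was called. In 31 of the 43, whether or not they passed the filter, every Foxl1 positive library lay above all Foxl1 negative ones. Of the genes that passed the filter, 50.4% did so. All of the 31 but Mki67 and Anln had no count in any Foxl1 negative library, so the lack of overlap mostly restates the absence of counts. The genes that did not pass the filter were Cdc20, Cdc25c, Espl1, Kif22, Kif2c, Ndc80 and Ttk. Of the 26, 24 had no count in any Foxl1 negative library, and all 4028 genes tested that had none were called, so these calls restate the absence of counts. The others were Mki67 and Anln. No gene of the table was called lower, 7 were lower at an unadjusted p under 0.05, and DESeq2 called 72 lower, none of them a mitosis gene.

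A minority of the mitosis genes had high counts in Foxl1 negative replicate 3. This library counted 27.9% of the mitosis genes and 32.1% of all genes. Tpx2 had 6754 counts (313 CPM) there, above the 15.6, 30.1 and 35.6 CPM of the Foxl1 positive libraries, and 0 in the other Foxl1 negative libraries. Top2a had 5263 counts (244 CPM), Incenp 5083 (236 CPM), Kif11 4304 (200 CPM), Ccnb2 3421 (159 CPM), Kif20a 3209 (149 CPM), Cdc25b 2029 (94.1 CPM) and Cdca8 1677 (77.8 CPM). Birc5, Mki67, Anln and Racgap1 had 88, 41, 17 and 1 counts. The other 31 genes had none, Cdk1, Ccna2 and Ccnb1 among them, where 3 counts make 0.139 CPM. Cdc25b, Incenp, Tpx2, Ccnb2, Cdca8 and Kif20a thus had log2 fold changes below 0, from -2.01 ± 2.32 for Cdc25b to -0.37 ± 2.74 for Kif20a (adjusted p from 0.668 to 0.967).

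The 2 other Foxl1 negative libraries held almost no mitosis transcripts. Cdc25b had 1915 counts (255 CPM) in replicate 2 and was the only member counted there, where 3 counts make 0.399 CPM. In replicate 1 Racgap1, which works with Ect2 and Kif23 at the midzone, had 28 counts (16.9 CPM) and Kif11 had 1 count, and 3 counts make 1.81 CPM. Across the group, Racgap1 was at 37.1, 2.24 and 44.2 CPM in Foxl1 positive cells (log2 3.09 ± 2.48; adjusted p = 0.469) and Kif11 at 115, 51.2 and 25.2 CPM (log2 0.40 ± 2.70; adjusted p = 0.965).

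The Foxl1 negative libraries also differed in the cells their markers point to. B and plasma cell markers summed to 1437, 260 and 12893 CPM in replicates 1, 2 and 3. Hepatocyte markers summed to 46336, 135 and 0.278 CPM and erythroid markers to 9680, 39.4 and 0.0464 CPM. Epithelial markers summed to 557, 7580 and 656 CPM, and fibroblast markers to 8081, 12229 and 6193 CPM with Foxl1, Bmp5 and Wnt5a at 0 in all 3. The S phase genes followed the same library, with 2.42, 0.133 and 1618 CPM. The part of these cells in the mitosis gene levels was not tested. On the mm9 coordinates Kif20a and Cdc25c were the closest pair of the 43, with 99720 bases between them on chromosome 18.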

How the data were processed

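RNA was sequenced from 10 libraries in 4 groups. The labels' protocols describe enzymatic dissociation, sorting, column purification of RNA and a New England BioLabs library kit. The authors deposited raw counts per transcript (24082 transcripts of 18594 genes), not normalized, and FPKM values of 29510 transcripts. CASAVA 1.8.2, edgeR and build mm9 are named in the submitters' processing notes. For the aligner, the counter and its strand setting nothing is given in the sources used here, so reads of a gene and an antisense partner cannot be told apart. The authors' representative transcript stood for each gene. For 7 of the 43 genes the table holds 12 further transcripts, which entered only an alternative that takes each gene's transcript of highest mean count.

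The members, gene lists, comparisons and alternatives were chosen with earlier results of these data known. Values in every library are given for Mki67, Top2a, Cdk1 and Ccnb1, for the member of largest and of smallest fold change in each role between Lgr5 positive and differentiated cells, and for members that went against the others or were counted in several Foxl1 negative libraries. Of other lists, up to 2 genes per role by smallest p were named, with those called in the opposite direction. Genes named beyond this rule were chosen after their values were seen.

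Levels are CPM with TMM factors over all 10 libraries, as mean ± SD where a mean is given. The factors of the differentiated libraries were 0.460 and 0.501 and the others 1.07 to 1.60, which raises differentiated levels relative to plain CPM. Each comparison was fitted on its 2 groups alone with edgeR 4.0.16 in R 4.3.3 (filterByExpr, robust glmQLFit, glmQLFTest, 2-sided), with Benjamini-Hochberg adjustment over all genes tested and a threshold of 0.05. Fold changes are log2 ± SE. Alternatives were DESeq2 1.42.0, limma 3.58.1 on log2(FPKM + 1) and log2(FPKM + 0.1) with and without a filter of 1 FPKM, other scalings, filters, transcripts and fits, a replicate block, and leaving out each library. The log2(FPKM + pseudocount) scale understates changes of low genes. The fits were checked on simulated counts. Same-numbered libraries did not deviate together between the mesenchymal groups (correlations of 0.0399, 0.00316 and 0.0620). The correlation was 0.322 between Lgr5 positive and differentiated libraries, from 2 mirrored pairs. Between Foxl1 positive and differentiated libraries it was -0.162 and 0.104. Since the libraries share only a number, numbers were not taken as pairs in the main fits. Replicates differed by a chi-square of at least 148 per degree of freedom, far more than a library deposited again would. Transcript length was taken as counts per FPKM in Lgr5 positive replicate 2. Where a gene had no count, up to 3 counts cannot be told from 0, and this floor covers counting error only, since the reads carry no known molecular identifiers. The level of 1 marker gene is not reported here.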

Additional observations from a re-analysis of the deposited data

How the results depend on the processing

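The rise of the mitosis genes in Lgr5 positive over differentiated cells kept its direction for all 43 in every setting. With 7 libraries in 1 fit 30 of them were called (721 genes higher and 946 lower, against 5005 and 4637), and with all 10 libraries in 1 fit no gene was called in this comparison. Limma called 3033 genes lower on log2(FPKM + 1) and 3011 on log2(FPKM + 0.1). The median over all genes was 0.12 with TMM and -0.0010 with median-of-ratios scaling.

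Fewer settings kept the other counts. Of Foxl1 positive against Lgr5 positive cells, genes called higher and lower (690 and 126) and members called lower (4) came to 1285, 445 and 8 with 7 libraries in 1 fit, to 2897, 762 and 11 with DESeq2, and to 0, 0 and 0 with all 10 libraries. Limma called 3155 genes and 34 members lower on log2(FPKM + 1), 2041 and 22 on log2(FPKM + 0.1) and, unfiltered, 2176 and 21 with 250 genes higher. Median-of-ratios scaling called 2 members, with the median of all genes at 0.26 instead of 0.06. Leaving out 1 library gave 0 to 2123, 0 to 1181 and 0 to 11, and put Mki67 between -1.70 and 0.026.

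Of Foxl1 positive against differentiated cells, genes called higher and lower (1467 and 998) and members called higher (9) came to 3693, 2118 and 29 with DESeq2 and to 0, 0 and 0 with all 10 libraries. Limma gave 669, 2570 and 3 on log2(FPKM + 1), 929, 2078 and 4 on log2(FPKM + 0.1) and 293, 1876 and 1 unfiltered. Its filter left 35 of the 43 members to test. The 7 libraries gave 1874 genes lower and 21 members, and no filter gave 4 members. Leaving out 1 library gave 0 to 3155, 0 to 3087 and 0 to 15. Directions turned for 7 members that had not passed. Aurka, Cdc25b, Cdca8, Kif4 and Plk1 were at -0.24, -0.15, -0.11, -0.046 and -0.32 on log2(FPKM + 1), filtered or not, and at -0.71, -0.31, -0.22, -0.30 and -0.75 on log2(FPKM + 0.1). Plk1 was at -0.0011 with 7 libraries, -0.077 with 10 and -0.041 with no filter. Leaving out 1 library put Aurka between -0.77 and 0.72, Cdc25b between -0.38 and 0.61, Cdca8 between -0.24 and 0.56, Kif4 between -0.91 and 1.35, Plk1 between -0.63 and 0.54, and Bub3 between -1.04 and 0.12.

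Of the mesenchymal groups, the FPKM filter left 18 of the 43 members to test. Genes called higher (4723) and members called higher (26) came to 2776 and 9 on log2(FPKM + 1), 2763 and 9 on log2(FPKM + 0.1) and 2640 and 10 unfiltered. Genes called lower (0) came to 17, 16 and 5 there, 72 with DESeq2, 68 with 10 libraries, 2 with median-of-ratios scaling and 1 with no filter. Leaving out 1 library gave 4823 to 8207 genes higher and 0 to 33 lower. Ccnb2, Cdca8, Incenp and Kif20a turned to 0.55, 0.095, 0.0077 and 0.29 on log2(FPKM + 1), filtered or not, and to 2.44, 1.78, 1.79 and 2.00, with Tpx2 at 1.47, on log2(FPKM + 0.1). Without 1 library Ccnb2 lay between -1.39 and 10.83, Cdca8 between -1.36 and 9.55, Incenp between -1.76 and 10.74, Kif20a between -0.93 and 10.91, Tpx2 between -2.09 and 10.83 and Kif11 between -0.34 and 8.96, each highest without Foxl1 negative replicate 3, where no or next to no counts remain and the value depends on the prior count. Kif11 was at -0.0080 with 10 libraries.

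With the replicate number as a block, no gene was called between the mesenchymal groups, where Ccnb2, Cdca8, Incenp, Kif20a and Tpx2 were at 7.69, 6.44, 8.35, 7.76 and 7.95. The block gave 2065 genes higher, 1169 lower and 14 members lower against Lgr5 positive cells, and 2478 higher and 2285 lower against differentiated ones, where Aurka, Cdc20, Cdc25b, Cdca8 and Plk1 were at -1.08, -0.62, -0.26, -0.084 and -0.60. Between Lgr5 positive and differentiated cells the block called all 43 members. Same-numbered libraries correlated at 0.322 there, from 2 mirrored pairs, and the libraries share only a number.

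The mean summed level of the members in differentiated cells, 267 CPM, was 129 CPM both with median-of-ratios scaling and unscaled. With median-of-ratios scaling it was 2673 CPM instead of 1630 in Foxl1 positive and 4530.5 instead of 5323 in Lgr5 positive cells. The cause of these changes was not tested. Depth limits the Foxl1 negative libraries most, where 3 counts make 1.81, 0.399 and 0.139 CPM.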
